A study of Drosophila melanogaster with 2 samples.

Results

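Promoters in the fly genome are often divergent, with protein-coding genes starting back to back, and the sites described here lay upstream of the other kind, at starts with no partner running the opposite way. A site was a peak of the conservative pooled list of Irbp18 chromatin immunoprecipitation sequencing (ChIP-seq) on the arms X, 2L, 2R, 3L and 3R. It was kept when its summit, the base of highest signal, lay 0 to 500 bp upstream of the nearest annotated transcript start. That start had to belong to a protein-coding gene with no opposite-strand protein-coding start within 1000 bp upstream of it, which is called a one-way start here. Of 3424 arm sites, 741 met the rule (21.6%, exact 95% interval 20.3 to 23.1), and the whole list held 3454 peaks. The rule used position and annotation only, not the height of a peak.

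The study held 1 group, whole Drosophila melanogaster embryos of 0 to 24 h in 2 biological replicates. The flies were transgenic for Irbp18 (CG6272) fused to eGFP, and chromatin sheared by sonication was precipitated with an antibody against GFP. The embryos span all of embryogenesis and mix all tissues, so a site cannot be assigned to a stage or cell type, and the fusion stands in for the endogenous protein. No control library and no second condition were analysed here. The deposited lists hold no read counts, so depth is unknown, and whether the replicates came from separate embryo collections is not stated beyond the word biological. P-values below are over sites and measure these lists, not the spread between embryo collections. Intervals cover counting error only.

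Irbp18 is a C/EBP-type transcription factor of the basic leucine zipper (bZIP) family. It binds DNA as a dimer with other bZIP proteins, among them Xrp1, a stress factor that is induced in cells heterozygous for a ribosomal protein gene, and crc, the fly ATF4, which acts when amino acids are short. Dimers of C/EBP and ATF4 type are known for composite elements such as TGATGCAA. Many fly promoters of broadly used genes carry other short elements instead of a TATA box: the DNA replication-related element (DRE, TATCGATA), read by DREF and by the insulator protein BEAF-32; Motif 1 (core GGTCACAC), read by M1BP; and Motif 7 (core CATCNCTA).

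The first sequences shown are windows of 50 bp on each side of a summit (dm6, release 6 reference genome), written along the strand of the gene. They were chosen after their values were seen, as strong sites with the motif, listed by both replicates, with under 30 bases inside the transcript. Capitals mark the DRE in the first 3, Motif 1 (read on the opposite strand as GTGTGACC) in vib, and Motif 7 in the last 3.
JIL-1, chr3L:11093180-11093280, minus strand: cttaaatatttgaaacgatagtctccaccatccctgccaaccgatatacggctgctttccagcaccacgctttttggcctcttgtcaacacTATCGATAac
eEF1gamma, chr3R:29220080-29220180, plus strand: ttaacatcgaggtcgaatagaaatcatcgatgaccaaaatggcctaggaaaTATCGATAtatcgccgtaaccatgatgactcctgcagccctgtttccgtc
Rnp4F, chrX:5322692-5322792, minus strand: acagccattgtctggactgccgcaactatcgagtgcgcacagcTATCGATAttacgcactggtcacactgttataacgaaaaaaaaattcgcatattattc
vib, chr3R:19226651-19226751, minus strand: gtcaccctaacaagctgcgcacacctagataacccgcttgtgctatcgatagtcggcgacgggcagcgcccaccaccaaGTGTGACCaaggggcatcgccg
tin, chr3R:21378736-21378836, plus strand: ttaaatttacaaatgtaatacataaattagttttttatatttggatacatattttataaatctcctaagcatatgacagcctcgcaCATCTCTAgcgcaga
Sptr, chrX:8464497-8464597, minus strand: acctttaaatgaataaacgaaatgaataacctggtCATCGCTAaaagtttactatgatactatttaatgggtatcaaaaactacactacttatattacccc
Rap1, chr3L:1862232-1862332, minus strand: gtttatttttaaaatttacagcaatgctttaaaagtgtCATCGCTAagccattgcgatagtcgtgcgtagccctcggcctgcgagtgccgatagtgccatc

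These 7 sites ranked from 210 to 1249 of the 3424 arm sites by height. Their summits lay 37 bp upstream of the start at JIL-1, 42 at eEF1gamma, 46 at Rnp4F, 50 at vib and 43 at Rap1. The Sptr and tin summits lay farther out, at 109 and 191 bp. Motif 7 was rarer there, at 1.77% of sites at 100 to 199 bp and 8.61% at 0 to 99 bp. The authors' signal value, a peak height in a unit that no label or header names, was 444 at JIL-1, a histone kinase gene, with 296 in the list of replicate 1 and 144 in that of replicate 2. At eEF1gamma, a translation elongation factor gene, it was 336, with 179 and 149 in the replicate lists, and at tin, the heart mesoderm factor tinman, it was 442, with 260 and 184. Rnp4F and vib each held a full DRE beside Motif 1. Signal values are compared below only within a list.

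The next 3 windows come from the top 5 sites listed by both replicates and held none of these elements. The capital marks the summit base.
CG14100, chr3L:19590572-19590672, minus strand: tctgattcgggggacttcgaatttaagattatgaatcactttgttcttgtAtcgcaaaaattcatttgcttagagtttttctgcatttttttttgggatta
ph-p, chrX:2137304-2137404, minus strand: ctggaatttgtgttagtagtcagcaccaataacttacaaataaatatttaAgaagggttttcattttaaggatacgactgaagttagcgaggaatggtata
CG11857, chr3R:25258767-25258867, plus strand: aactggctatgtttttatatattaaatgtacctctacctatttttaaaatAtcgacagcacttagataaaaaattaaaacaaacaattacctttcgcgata

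CG14100 had a signal value of 2726, rank 2 of all arm sites, with 1593 in replicate 1 and 1148 in replicate 2, and its summit lay 98 bp upstream of the start. At ph-p, which codes for a subunit of Polycomb repressive complex 1, the signal value was 1762, with 1048 and 740 in the replicate lists. The ph-p summit lay in an intron of that gene, 499 bp upstream of an inner start. CG11857 had 1239, with 773 and 469. All 3 windows were rich in A and T, with 31.7%, 32.7% and 25.7% G and C.

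The 741 sites lay at 718 starts of 685 genes, which is 7.14% of the 9588 protein-coding genes with a one-way start. In all, 639 genes had 1 site, 37 had 2, 8 had 3 and Rtnl1, a reticulon of the endoplasmic reticulum membrane, had 4. The Rtnl1 sites lay upstream of separate starts and differed in height, with signal values of 815, 441, 111 and 86.2. The replicates kept that order, with 479, 245, 63.7 and 53.1 in replicate 1 and 346, 189, 42.2 and 40.8 in replicate 2. The bound share was 8.35% of one-way genes on X (131 of 1568, 7.03 to 9.84), against 6.68% to 7.16% on the autosomal arms. Those intervals overlapped, and the arms were not tested against each other.

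Most summits, 438 (59.1%), lay between genes. Another 200 (27.0%) lay in an intron of the same gene, upstream of an inner start, and 30 (4.05%) in an exon of it. The remaining sites lay in an intron (41) or an exon (32) of another gene. The start used was the outermost of its gene at 509 sites (68.7%).

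Summits were most frequent just before the start. Of bins of 25 bp, the fullest held 82 sites and ended 25 bp before the start, and the bin next to the start held 41. The median distance was 155 bp upstream, with quartiles at 74 and 252 bp, and 244 sites (32.9%) lay within 99 bp. The class on the other side of the same kind of start, with summits 1 to 500 bp inside the gene, held 178 sites. Height was not greatest at the start itself. The median signal value was 121 at 0 to 99 bp, 166 at 100 to 199 bp, 157 at 200 to 299 bp, 141 at 300 to 399 bp and 109 at 400 to 500 bp. In replicate 1 the corresponding medians were 73.0, 98.1, 90.6, 86.8 and 69.6, and in replicate 2 they were 49.2, 73.0, 69.5, 69.6 and 49.8. In both replicates the medians at 100 to 399 bp were above those at either end.

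**Figure D1:**
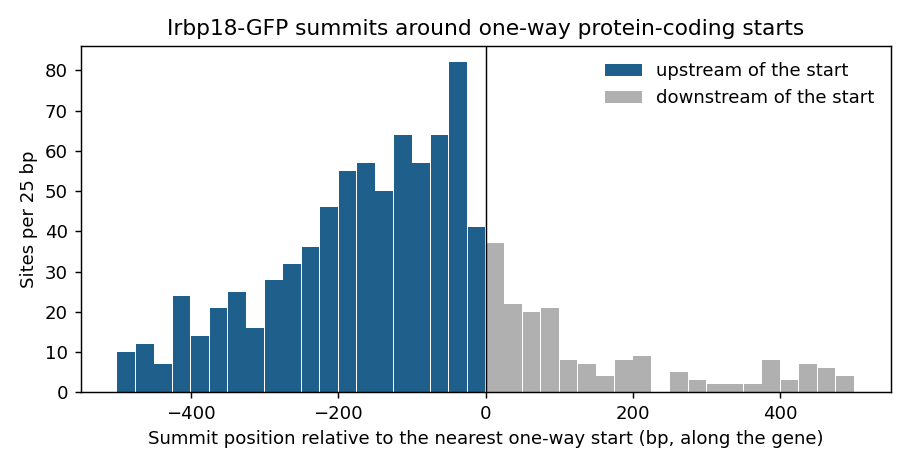
Number of site summits per 25 bp (vertical axis) against their position from the nearest one-way start in bp along the gene (horizontal axis); blue bars are the 741 upstream sites and grey bars the 178 downstream sites. The tallest blue bar (82) ends 25 bp before the start, the bar next to the start holds 41, and the grey bars are highest (37) at the start.

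Sites at the edges of the rule show what it cuts. Just inside 500 bp were ph-p and CG6040, both at 499 bp, with signal values of 1762 and 93.6, and just outside were capu at 501 bp (70.2) and CG34054 at 503 bp (90.2). At the 1000 bp limit, Eno and pck were kept with an opposite start 1015 and 1031 bp away, whereas Pax and Nf-YA went to the divergent class at 977 and 965 bp.

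Of the 741 sites, replicate 1's thresholded list held a summit within 100 bp at 551 (74.4%) and replicate 2's at 439 (59.2%). Both lists did so at 401 (54.1%, 50.5 to 57.7), replicate 1 alone at 150, replicate 2 alone at 38 and neither at 152 (20.5%). The sites in both lists had a median signal value of 217 and the sites in neither 79.5. Where both listed a site, the replicate summits lay a median of 16 bp apart. In the longer ranked lists 687 sites had a value in both replicates, and Spearman's rho over these sites was 0.83 and Pearson's r on log10 values 0.91, given as a description since the sites share 2 libraries. The lowest heights were found in overlapping peaks. All 21 sites with a signal value under 50 had a peak that overlapped another peak of the list, and 15 of them had no match in either ranked list.

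**Figure D2:**
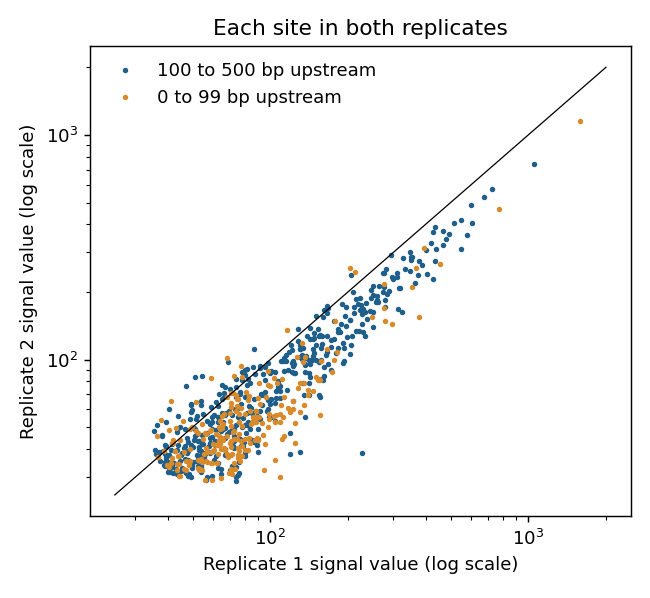
Signal value of each of 687 sites in replicate 2 (vertical axis, log scale) against replicate 1 (horizontal axis, log scale), in the authors' unit of each list; orange points are sites 0 to 99 bp upstream, blue points sites farther out, and the line marks equal values. Of the points, 604 lie below the line, and Spearman's rho is 0.83.

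Upstream one-way sites recurred more often, and were more often tall, than sites downstream of one-way starts, and no such difference passed the test against divergent promoter sites. Recurrence in both replicates was 54.1% against 53.6% of 871 divergent sites, a difference of 0.50 percentage points with overlapping intervals (50.5 to 57.7 and 50.2 to 57.0; Fisher's exact test, two-sided, adjusted p = 0.880). Against the 178 downstream sites it was 54.1% against 29.8% (Fisher's exact test, adjusted p = 5.28e-08). Against all 2683 other arm sites it was 54.1% against 45.3% (Fisher's exact test, adjusted p = 7.90e-05), and this call was lost with replicate 1's list alone, where the difference was 1.44 points, and with top-score peaks only, where it was 3.88 points. With a single replicate's list, recurrence meant a summit of the other replicate's list within 100 bp. All adjusted p-values here are Benjamini-Hochberg values over 9 class comparisons.

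Height was compared in the same way. Among the strongest 25% of arm sites, with signal values from 193, were 226 of 741 upstream sites (30.5%, 27.2 to 34.0) and 33.6% of divergent sites (30.5 to 36.9), which did not pass the test (Fisher's exact test, adjusted p = 0.204). With a one-way limit of 500 bp the share differed by -9.22 points and passed. By the same exact test, the share was 11.2% of downstream sites (adjusted p = 1.52e-07) and 23.5% of all other sites (adjusted p = 0.000279). Median signal values were 134 at upstream sites, 141 at divergent sites, 94.1 at downstream sites and 119 at all other sites. Recurrence rose with height among upstream sites, so the 2 measures are not separate results. In 4 equal groups by signal value, from the weakest to the strongest, 0.538%, 34.1%, 83.8% and 98.4% recurred. Whether recurrence differed between classes at equal height was not tested.

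The 20 strongest sites listed by both replicates had signal values from 726 to 2726 and lay a median of 159 bp upstream. Of these, 16 lay at 100 to 299 bp, 3 nearer to the start, and ph-p at 499 bp. Genes with a known role included Sesn, the stress-induced sestrin that restrains TOR, with 910 (577 in replicate 1 and 358 in replicate 2). Hsp27, a small heat shock protein, had 794 (428 and 371), and amon, a prohormone convertase, had 793 (466 and 324). The group also held genes of other kinds. Sox14, a transcription factor of the ecdysone response, had 1005 (605 and 404), and px, a gene named for its wing vein phenotype, had 1202 (676 and 529). The RNA-binding protein gene msi had 964 (549 and 417), and tst, a helicase that works with the RNA exosome, had 863 (549 and 312). Replicate 1's value was the higher at each of the 20, and so it was at 604 of the 687 sites with both values (87.9%). How the replicate lists were scaled is not known here, so this difference has no reading as binding.

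**Figure D3:**
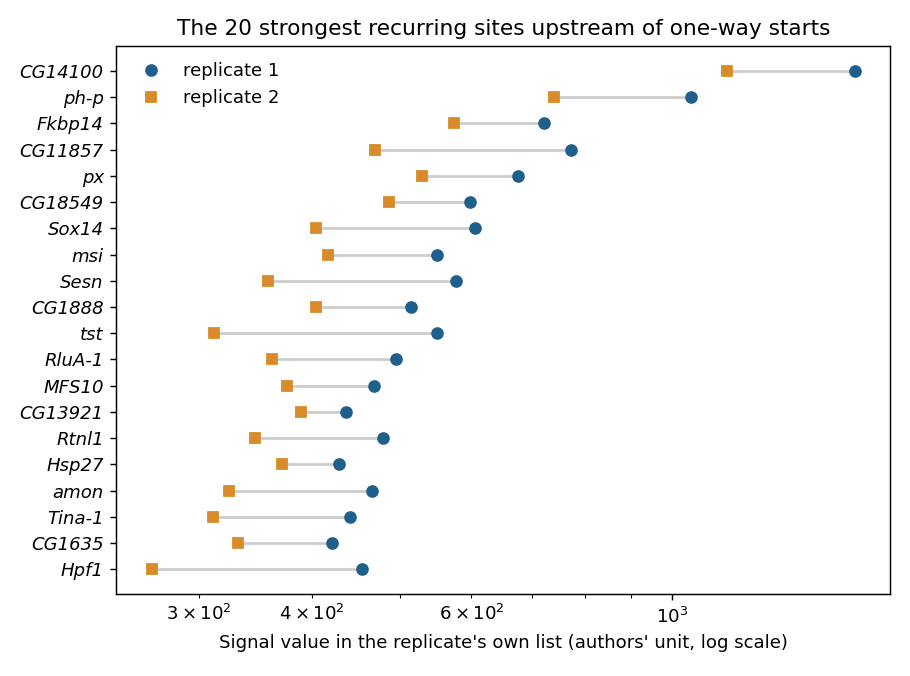
Signal value on a log scale (horizontal axis) in replicate 1 (blue circles) and replicate 2 (orange squares) for the 20 strongest sites listed by both replicates, ordered down the page by the pooled signal value. CG14100 and ph-p stand first and second in both replicates, and the replicate 2 value lies between 0.568 and 0.893 of the replicate 1 value.

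Words of core promoters were more frequent at the summits than in flanks farther upstream. The flanks lay 500 bp farther from the start, so this test cannot separate a site from its distance to the start. At one-way starts with no site, the DRE core was present in 7.81% of windows at 0 to 99 bp and 3.17% at 400 to 499 bp. In windows of 50 bp on each side, on both strands, the DRE was present at 39 summits against 1 window centred 500 bp farther upstream (exact McNemar test, two-sided, adjusted p = 5.22e-10 over 14 motifs). Its inner part ATCGAT, the DRE core, which every DRE also holds, was present at 103 summits against 26 flanks (exact McNemar test, adjusted p = 2.76e-11). Motif 7 was present at 28 summits against 2 flanks (exact McNemar test, adjusted p = 1.01e-06). Motif 1 was present at 17 summits against 1 flank (exact McNemar test, adjusted p = 0.000507), a call that was lost with replicate 2's list alone (6 against 0, adjusted p = 0.0875) and in windows of 25 bp (9 against 1, adjusted p = 0.0752). In all, 134 sites (18.1%, 15.4 to 21.0) held the DRE core, Motif 1 or Motif 7, and 10 held both the DRE core and Motif 7.

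Full-length words known for C/EBP and ATF dimers were rare both at the summits and in the upstream flanks, and shorter relaxed C/EBP words were common in both. The composite element (TGATGCAA or TGATGTAA) was present at 2 summits and 2 flanks. Its sites, CG4829 at 180 and Art4 at 124, were named after their values were seen. The C/EBP palindrome TTGCGCAA was present at 2 summits and 2 flanks, and the PAR site TTACGTAA at 2 summits and 1 flank. The relaxed C/EBP words TTGCNNAA and TTACNNAA were present at 134 summits and 123 flanks, which did not pass the test (exact McNemar test, adjusted p = 0.778). Against the flank on the gene side they were present at 134 summits and 87 flanks and passed (exact McNemar test, adjusted p = 0.00206), and in the other settings run adjusted p was 0.0682 to 1.00. AP-1, CRE, Zelda, GAGA and E-box words did not pass it either. TATAAA was present at 131 summits against 111 flanks (exact McNemar test, adjusted p = 0.457). It passed with replicate 2's list alone, 100 against 64 (exact McNemar test, adjusted p = 0.00896), and with a flank 1000 bp out or on the gene side. The absence of a word from a window says only that these letters were not in it.

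Among all 8-base words, counted with their reverse complements, 27 of 2655 (1.02%) were more frequent at the summit past the same test, and 3 were more frequent in the flank. Of the 27, 16 held ATCGA or CGATA and so overlapped the DRE. The others included AGTGTGAC, which overlaps Motif 1 and was present at 17 summits against 0 flanks, and CAACACTG, at 16 against 1. The A and T word TTAAAAAA was present at 57 summits against 21 flanks (exact McNemar test, adjusted p = 0.0148). The 3 flank words, TACATACA, CATACATA and ATACATAC, are phases of a single repeat. The number of words called rested on the data used, at 7 with replicate 2's list alone, 2 in windows of 25 bp and 233 with the flank on the gene side.

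Core promoter words stand near starts in any case, so the same distances were also read upstream of 12020 one-way starts with no site of the list. At those distances the DRE core was present in 13.9% of site windows and 4.94% of windows at starts with no site. Motif 7 was present in 3.78% and 0.793%, and Motif 1 in 2.29% and 0.721%. The relaxed C/EBP words were present in 18.1% of site windows and 14.6% of windows at starts with no site, with the widest gap at 100 to 199 bp, 22.6% and 15.2%. GAGA, the word of GAGA factor, went the other way, with 1.35% of site windows and 3.33% of windows at starts with no site. These shares are an addition made with the results in view and were not tested.

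The difference lay near the start. At 0 to 99 bp the DRE core was present at 83 of 244 sites (34.0%) and in 7.81% of windows at starts with no site, and Motif 7 in 8.61% and 1.20%. At 100 to 199 bp the DRE core was present at 10 of 226 sites (4.42%) and in 3.81% of windows at starts with no site, and no site beyond 400 bp held it. TATAAA was the reverse. At 0 to 99 bp it was present at 14 sites (5.74%) and in 18.1% of windows at starts with no site, and at 100 to 199 bp at 57 sites (25.2%) and in 15.3%. In the place of a TATA box, 40 to 15 bp before the start on the gene's strand, TATAAA stood at 2.79% of the 718 starts with a site and 8.29% of starts with no site. In the window from 250 bp before to 50 bp after the start, 21.0% of starts with a site, 14.7% of one-way starts with no site and 20.8% of all 19111 protein-coding starts held the DRE core. Unlike in the summit windows, GAGA was more frequent there at starts with a site, 14.8% against 8.95% of one-way starts with no site.

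**Figure D4:**
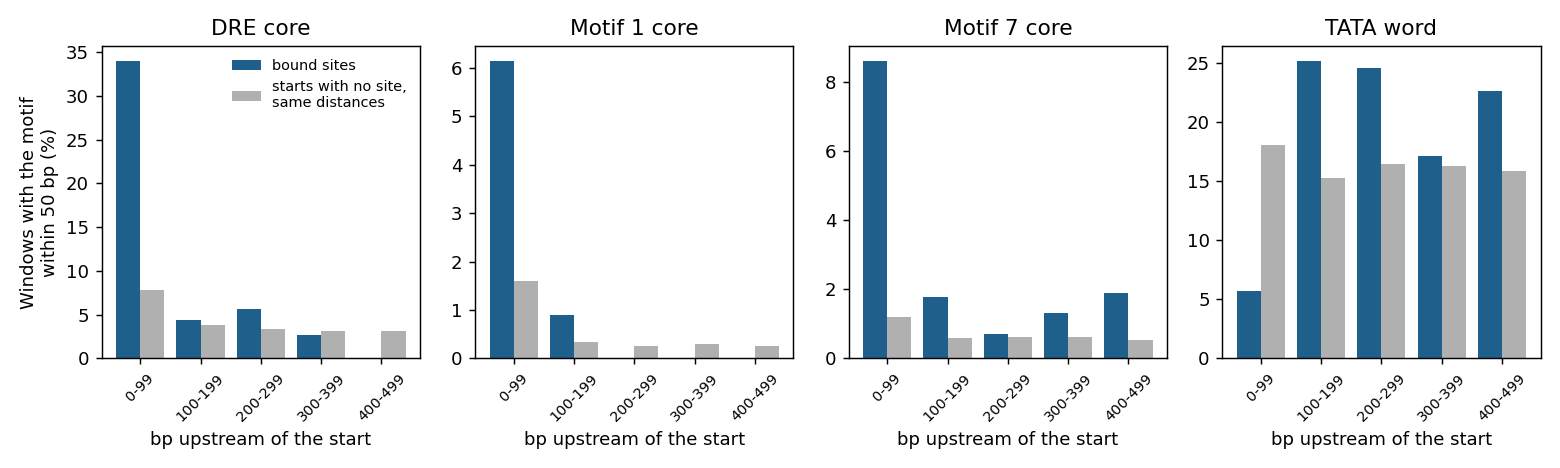
Share of windows within 50 bp that hold each word (vertical axis, percent) by distance upstream of the start (horizontal axis, bp); blue bars are sites and grey bars the same distances at 12020 one-way starts with no site. The DRE core, Motif 1 and Motif 7 bars are tall at 0 to 99 bp in blue, and the TATA bar there is lower in blue (5.74%) than in grey (18.1%).

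DRE core matches in the summit windows lay a median of 47 bp before the start, with quartiles 64 and 27 bp before it. Motif 7 matches lay a median of 27 bp before the start but spread more widely, with quartiles 114 and 14 bp before it. Sites with the DRE core did not stand out in height: their median signal value was 125 against 135 at sites without it, with 76.4 against 81.0 in replicate 1 and 49 against 58.9 in replicate 2. Of them, 50.5% recurred in both replicates against 54.7% of sites without it, with overlapping intervals.

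With all 9 class comparisons adjusted together, the DRE was rarer at upstream one-way sites than at divergent sites, 5.26% against 8.61% (Fisher's exact test, adjusted p = 0.0165). This call did not hold in 9 of the 10 other settings run, where the difference was between -2.71 and -0.821 points, and held in windows of 100 bp. Against downstream sites the share was 5.26% against 2.25% (Fisher's exact test, adjusted p = 0.144). Against all other arm sites it was 5.26% against 2.98% (Fisher's exact test, adjusted p = 0.00783), a call lost in windows of 100 bp.

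Height went with base composition. When the 741 sites were split into 4 equal groups by signal value, mean GC content within 50 bp of the summit was 41.7%, 38.4%, 37.2% and 31.4% from the weakest to the strongest group, with SDs over sites of 10.9, 11.1, 10.3 and 8.78. TATAAA was present in 9.68%, 12.4%, 16.8% and 31.9% of the sites in the same order. The DRE core was most frequent in the middle, at 11.8%, 18.4%, 17.3% and 8.11%. Ranking by replicate 1 gave 41%, 38.3%, 37.1% and 31.6% GC, and by replicate 2 41%, 39.2%, 36.6% and 31.2%. Over all sites, GC content was 37.2% at the summits, 40% in the upstream flanks and 46.8% in the flanks on the gene side. The part of base composition in the word counts was not tested.

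**Figure D5:**
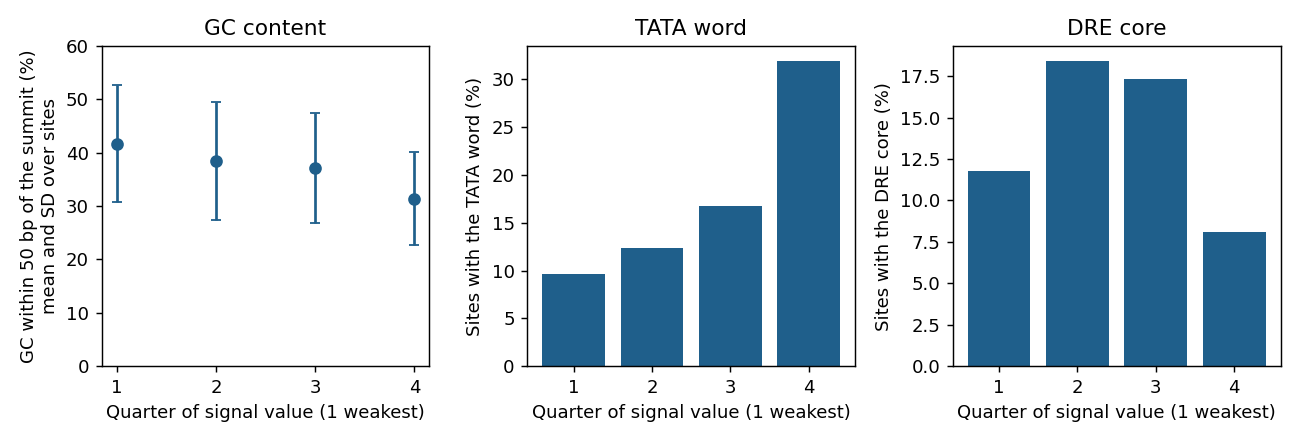
GC content (left, mean with SD over sites), share of sites with TATAAA (middle) and share with the DRE core (right), each in percent, for 4 groups of 185 or 186 sites from the weakest (1) to the strongest (4) signal value. GC content is lowest (31.4%) and the TATAAA share highest (31.9%) in the strongest group, which has the lowest DRE core share (8.11%).

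Gene groups differed in how often a one-way start carried a site. Among cytosolic ribosomal protein genes, 16 of 41 with a one-way start (39.0%) had one, beside 7.14% of all one-way genes. The strongest were RpL23A with 333 (166 in replicate 1 and 162 in replicate 2), RpS29 with 238 (153 and 80.9) and RpS4 with 191 (130 and 78.5). These sites sat close to the start, 9 to 102 bp upstream with a median of 45.5 bp, and 15 of the 16 lay within 100 bp. Their median signal value was 141, beside 134 over all upstream one-way sites, and 10 recurred in both replicates. The DRE core was present at 5 of them (RpL27, RpL37-1, RpS10b, RpS2 and RpS29), Motif 1 at RpL27A, RpL30 and RpS23, and Motif 7 at RpL27. The number of ribosomal protein genes with a site was 11 to 24 over the other lists and rules run, but the number of one-way genes changed with the rule. It was 11 of 41 with replicate 1's list alone and 24 of 59 with a one-way limit of 500 bp. At 2000 bp it was 13 of 32, and with gene starts 17 of 37. The shares of all one-way genes were 6.44%, 7.96%, 6.85% and 6.10% in the same order.

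Other translation genes were near the background. A site was present at 1 of 15 mitochondrial ribosomal protein genes, mRpL9 (69.8), and at 1 of 11 aminoacyl-tRNA synthetase genes, AspRS-m (76.7), and with either replicate's list alone both counts were 0. Among 25 initiation factor genes 2 had one, eIF3f1 (136, with 85.7 in replicate 1 and 53.3 in replicate 2) and eIF2D (111, with 65.2 and 44.8).

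Glycolysis genes had sites at 5 of 11 one-way genes (45.5%), beside 7.14% of all one-way genes. The Eno, Pgk and PyK sites lay inside their own gene, upstream of an inner start. Only those of Ldh and Hex-A lay between genes. Eno, the enolase gene, had 533 (281 in replicate 1 and 253 in replicate 2). Pgk, phosphoglycerate kinase, had 3 sites with signal values of 285, 185 and 107, and Ldh, lactate dehydrogenase, had 253 (158 and 100). Hex-A had 137 and PyK, pyruvate kinase, 109. All but Hex-A, at 124 bp, lay over 200 bp upstream. With gene starts in place of transcript starts the count was 2, and within 200 bp it was 1. Only replicate 1 listed the PyK site, and neither replicate listed the weakest Pgk site.

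Among genes of the amino acid stress response, 3 of 17 had a site (17.6%). The count was 5 with replicate 1's list alone and 1 within 200 bp. Besides Sesn, these were aay, phosphoserine phosphatase, with 597 (332 in replicate 1 and 252 in replicate 2), and Ldh. No upstream one-way site was assigned to Irbp18 itself or to its partner genes Xrp1 and crc. Of the endoplasmic reticulum quality genes, 2 of 8 had a site, Xbp1, the factor of the unfolded protein response, with 389 (237 and 151), and the calnexin gene Cnx99A with 168 (125 and 52.1). Both were in both replicate lists.

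Among other bZIP factor genes, 6 of 18 had a site (33.3%), against 2 of 17 with gene starts and 4 of 18 with replicate 2's list alone or within 200 bp. Atf3 had 660 (389 in replicate 1 and 263 in replicate 2), and REPTOR, a TORC1-regulated bZIP factor, 484 (274 and 199). Xbp1 belongs to this list too. CrebB had 147, vri, a clock repressor, 124, and Pdp1, a clock activator, 98.5. The last of these was in neither thresholded replicate list, and only replicate 1 listed the vri site. The REPTOR, CrebB, vri and Pdp1 sites lay in an intron of their own gene, upstream of an inner start.

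Chromatin, repair and autophagy lists were short, and their shares lay above 7.14% on few genes. Among Polycomb and Trithorax genes 3 of 14 (21.4%) had a site, ph-p, the Brahma complex subunit osa (166, with 109 in replicate 1 and 52.5 in replicate 2) and the remodeler kis (153, with 91.0 and 63.3). The osa window held a full DRE and the kis window the DRE core. Of 7 insulator protein genes 1 (14.3%) had a site, BEAF-32 itself with 132 (93.2 and 52.2), though only replicate 1 listed it. Among 6 DNA repair and checkpoint genes 2 (33.3%) had one, p53 (123) and PolQ (107). Among 18 cell cycle genes 2 (11.1%) did, Dp, the E2F partner, with 451 and a second site at 86.3, and CycE with 119. Of the autophagy genes 2 of 9 (22.2%) did, Syx17 (122) and Atg8a (83.3), and of the Rab and Vps traffic genes 2 of 31 (6.45%) did, Rab5 (168) and Rab11 (96.4). Replicate 1 alone listed osa, Syx17, Rab11 and the second Dp site, replicate 2 alone listed Atg8a, and neither listed CycE. With replicate 2's list alone the autophagy and traffic counts were 1 each and the insulator count 0, and with replicate 1's list alone the repair count was 3. The Polycomb and Trithorax count was 2 with gene starts, with replicate 2's list alone and within 200 bp. The ph-p, Dp, CycE, Atg8a and Rab5 sites lay in an intron of their own gene, upstream of an inner start.

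Shares in the tissue and patterning lists rested on few genes. Among 15 muscle markers 3 (20%) had a site, Msp300 with 359 (221 in replicate 1 and 134 in replicate 2), sls, the titin-like gene, with 280 (142 and 138), and how with 80.2, but the count was 2 with either replicate's list alone and 0 within 200 bp. Among 29 patterning factors 2 (6.90%) did, bcd (133) and wg (93.7), near the 7.14% of all one-way genes. Among 15 hemocyte and fat body markers 1 (6.67%) did, ush, with 158 and a second site at 69.6. Only replicate 1 listed the wg site, and neither replicate listed the how site or the second ush site. The Msp300 site and the ush sites lay inside their own gene, upstream of an inner start. No upstream one-way site was present at 154 chemoreceptor genes, 47 oxidative phosphorylation genes, 26 proteasome genes, 15 neuron markers, 6 Mediator genes or 3 germline markers. Over all genes of these lists, promoter sites of any kind were nearest to 8 oxidative phosphorylation, 5 proteasome, 4 Mediator, 1 neuron, 1 germline and 0 chemoreceptor genes. The oxidative phosphorylation count was 2 with replicate 1's list alone and with gene starts, and 1 with the other pooled list, and the proteasome count was 1 with replicate 1's list alone, with the other pooled list and with a one-way limit of 500 bp. For the chemoreceptors, at 0 in every setting run, a limit of 3 counts allows a share of up to 1.95%, below 7.14%. For the oxidative phosphorylation genes the same limit was 6.38%, but their count was not 0 in every setting. The remaining lists at 0 are too short for such a reading. The lists were small and chosen with earlier results of these data known, and their counts are a description.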

How the data were processed

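Irbp18 ChIP-seq was measured in 2 biological replicates of 1 group. The authors deposited peak lists on dm6 with a whole-number score, a signal value and another column, the summit offset, for each peak. The score and signal have no unit in the labels, and the sources used here name neither an aligner nor a peak caller. The signal value deposited by the authors was used only to rank, filter or describe peaks within a list, and the score deposited by the authors only for the alternative of top-score peaks (1000). Depth is unknown, since the lists hold no read counts.

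From these lists 7 were used, and every per-sample column was used (0 left out). The conservative pooled list gave the sites. Starts came from Ensembl BDGP6.54 (release 115), leaving out pseudogenes and transposable elements, and a site equally near to starts of different classes went to no class. Sequence came from the release 6 reference, within whose arm lengths all peaks ended. Replicates matched when summits lay within 100 bp. Shares were compared by Fisher's exact test and paired windows by the exact McNemar test (two-sided, Benjamini-Hochberg, threshold 0.05; 8-base words needed at least 10 windows), with Python 3.11.15, SciPy 1.17.1, NumPy 2.4.6, pandas 2.3.3 and Matplotlib 3.10.9. Intervals are exact Clopper-Pearson 95% intervals. The class rule was checked on made-up summit positions and the 8-base word test on simulated sequences. Fisher's exact test was not checked in this way.

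The sites, the 23 gene lists and the 14 motifs were chosen with earlier results of these data known. Genes were named as the 20 strongest sites in both replicate lists, up to 3 per gene list and the sites nearest to the limits of the rule; further names in the ribosomal protein, glycolysis and bZIP lists, at the sequences and for repeated or composite-element sites were chosen after their values were seen. The same-distance shares, the 4 groups by signal value, the low-signal counts and the overlap of peaks were added with the results in view. In all, 14 alternatives were run.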

Additional observations from a re-analysis of the deposited data

How the results depend on the processing

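No paired analysis was possible because the study has 1 group. Of the 14 alternatives, the motif calls for the DRE, its core and Motif 7 kept their direction and their side of the threshold in every one run, and so did the recurrence and strength of upstream one-way sites against downstream sites. With 1 replicate's list alone, the sites numbered 468 to 653, their median signal value was 82.1 to 86.4 on scales that differ between lists, and the bound share of one-way genes was 4.61% to 6.44%. Recurrence with these lists meant a match in the other replicate's list only. Between these lists the DRE difference against divergent sites was -1.70 to -1.26 points and lost its call, recurrence against all other sites differed by 1.44 to 4.77 points and was lost at the lower value, recurrence against divergent sites differed by -1.60 to 1.04 points, the share of strongest sites against divergent sites by -0.829 to 0.660 points, and the words called numbered 7 to 33. Within 200 bp there were 475 sites, a bound share of 4.87%, a median distance of 97.0 bp, DRE differences of -0.821 points against divergent and 5.54 points against downstream sites, the second now past the threshold. Gene starts gave a median distance of 127 bp, a median signal value of 129 and a DRE difference of -2.34 points against divergent sites. A one-way limit of 500 bp gave a median distance of 136 bp, a DRE difference of -2.40 points, recurrence reversed at -2.92 points and strength at -9.22 points, past the threshold, each against divergent sites. At 2000 bp the DRE difference was -2.71 points and 17 words were called. The other pooled list gave a median signal value of 131 and -2.65 points, and top-score peaks 153, -2.61 points and a lost recurrence call of 3.88 points against all other sites. Matching within 50 bp reversed recurrence against divergent sites to -0.320 points. Windows of 25 bp gave a DRE difference of -1.72 points and 2 words, windows of 100 bp a lost DRE call of 1.78 points against all other sites, and the flank on the gene side 233 words. The cause was not tested. Motifs that did not pass with the settings of the report changed sign in places: Zelda at -0.130 (other pooled list), -0.214 (replicate 2's list) and -0.161 (top score); AP-1 at -0.130 (other pooled list) and -0.135 (flank 1000 bp out); TATAAA and relaxed C/EBP at -0.632 and PAR at -0.211 within 200 bp; PAR at -0.135 and E-box at 0.540 in windows of 25 bp; GAGA at 1.08 in windows of 100 bp; and E-box and GAGA at 0.135 with the flank 1000 bp out. A difference of exactly 0 was not counted as a change of sign, a choice made after the values were seen. Depth and the lack of a control list limit all counts.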
